A study of Mus musculus with 48 samples.

Results

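The heat shock proteins described here are 10 genes of the cytosol and the mitochondria, namely Hspa1a, Hspa1b, Hsph1, Dnajb1, Hspb1, Hsp90aa1, Hspa8, Hspd1, Hspe1 and Bag3. They were chosen by symbol from the 47561 genes of the expression table, all 10 were found, and all 10 passed the filter on low values in every comparison. RNA was sequenced from the lungs of 48 adult mice, with 3 mice in each of 16 groups formed by strain, sex, injection and air. The strains were the inbred C3H/HeN (C3H) and C57Bl/6 (C57B), whose substrain is named differently by the sources used here. Each mouse received a single intraperitoneal injection of saline or of 25 mg/kg aurothioglucose (ATG, a gold drug known to block the enzyme thioredoxin reductase), and was then kept for 96 h in room air or in hyperoxia of more than 95% oxygen. No group carried a genetic modification, and all mice, the saline mice in room air included, had been injected and were killed under ketamine and xylazine. The series text speaks of ATG for all mice, so the saline groups rest on the sample labels. Every group held 3 mice, each mouse gave 1 library, and lung pieces rather than sorted cells were used.

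Heat shock proteins are chaperones, which hold, fold or release other proteins. The inducible genes of the cytosol are switched on by heat shock factor 1 (HSF1), which is kept inactive by chaperones and, when unfolded proteins occupy these, binds heat shock elements, inverted repeats of the letters GAA, in front of its target genes. In the mitochondrial matrix, Hspd1 (HSP60) forms a folding chamber and Hspe1 (HSP10) its lid. In lung, these proteins have been studied mainly as protection against heat, oxidants and inflammation.

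The promoters are shown first because 2 pairs of members share theirs in different ways. RefSeq (GRCm38.p6, the assembly also known as mm10) held a promoter for 8 of the 10 members, Hsp90aa1 and Hspa8 being the others. Hspa1a, on the minus strand of chromosome 17 from 34969190 to 34972156, and Hspa1b, on the same strand from 34956436 to 34959238, encode the inducible HSP70 and are neighbours. The 250 bases before the start of Hspa1a (chr17:34972157-34972406, minus strand) and of Hspa1b (chr17:34959239-34959488, minus strand) are printed 5′ to 3′, with the letters GAANNTTC of a 2-unit heat shock element in capitals.
Hspa1a: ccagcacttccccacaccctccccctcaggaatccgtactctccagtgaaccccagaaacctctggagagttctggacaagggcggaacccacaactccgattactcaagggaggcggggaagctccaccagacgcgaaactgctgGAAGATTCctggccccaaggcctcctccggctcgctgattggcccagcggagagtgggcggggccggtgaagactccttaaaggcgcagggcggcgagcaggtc
Hspa1b: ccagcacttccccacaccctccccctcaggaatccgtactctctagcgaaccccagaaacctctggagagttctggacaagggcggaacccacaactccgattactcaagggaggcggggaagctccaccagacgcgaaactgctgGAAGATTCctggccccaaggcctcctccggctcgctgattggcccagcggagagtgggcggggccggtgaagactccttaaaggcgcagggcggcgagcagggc
These sequences were identical at 247 of 250 bases (98.8%), and the differences, from Hspa1a to Hspa1b and counted from the 5′ end, were C44T, T47C and T249G. Hspd1 on the minus strand of chromosome 1 (55077835 to 55088243) and Hspe1 on the plus strand (55088132 to 55091307) lie head to head, and the annotated genes overlap. RefSeq gives Hspd1 a start at 55087932, which lies 216 bases from that of Hspe1, and another at 55088243, from which the genes overlap and whose own 250 bases held no such letters. With the first of these starts, a single stretch of such letters lies between the genes, and the 30 bases around it (chr1:55088053-55088082, plus strand) are printed with that stretch in capitals.
Hspd1 and Hspe1: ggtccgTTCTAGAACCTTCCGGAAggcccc
This stretch held 2 overlapping matches to 3 units (GAA and TTC in turn, starting with either, with NN between units) and, within them, 3 matches to 2 units (TTCNNGAA or GAANNTTC). These letters cover both strands, and every match to 3 units contains matches to 2 units. Of all 32817 promoters of this length, 0.466% held 3 units and 12.8% held 2 units. A 2-unit match was also found before Hspb1, at positions -117 and -97 from the start, and before Hsph1, at position -54 or -33 depending on which of its RefSeq starts is taken, whereas the windows of Dnajb1 and Bag3 held none of these letters. A match describes the letters only and is not a measured binding site.

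The values are FPKM (fragments per length of transcript and per mapped fragments of the library), computed by the authors, and no read counts were used. The FPKM of each library summed to between 510933 and 748290, and the absolute depth is unknown. Scgb1a1, a club cell transcript, made up 10.4% to 30.2% of this sum in room air and 1.2% to 7.17% in hyperoxia, so the sum was shared out differently between the 2 conditions. Libraries of the same group correlated with a median r of 0.968 across genes (range 0.933 to 0.979), and none were near-identical. C3H male mouse 1, given saline in room air, stood apart: it was the lowest of all 48 mice in 6 of the 10 members. Its approximate relative depth of 0.771 was the lowest, together with that of mouse 40. The Rn18s-rs5 (ribosomal RNA) share was 3.46% both in mouse 1 and in C3H male mouse 4 (ATG, room air), and 3.17% in C3H male mouse 3. Several results are also given without mouse 1 or without C3H male mice 1 and 3. Without mice 1 and 3, mouse 2 is the only saline C3H male in room air. Mouse 2 was itself the lowest of all 48 mice in Hsp90aa1 (115 FPKM) and Hspe1 (49.2 FPKM).

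Several members share sequence with other genes, between which the authors' counting may have divided reads. Of the 30-base sequences of their transcripts, 65.7% of Hspa1a and 68.3% of Hspa1b also occur in another gene, mostly in each other. The share was 52.5% for Hspb1 (all with the pseudogene Hsp25-ps1), 51.7% for Hsp90aa1, 50.7% for Hspd1, 43.8% for Hspa8, 25.3% for Hspe1, 0.412% for Dnajb1 and 0 for Hsph1 and Bag3. The pseudogene Gm15459, which shares 38.8% of the Hspa8 sequences, had a median of 91.6 FPKM in the 24 C3H mice and 19.4 FPKM in the 24 C57B mice, so the level of Hspa8 is uncertain between strains. Members were also summed with the genes sharing at least 5% of their sequences. Hspb1, Hsp90aa1, Hspd1 and the sum of Hspa1a, Hspa1b and Hspa1l then passed the test of hyperoxia given below. Hspa8 and Hspe1 did not pass, and the gene added to Hspe1 was at 0 in all mice. Hsph1, Bag3 and Dnajb1 had no such relatives, so their results could not change. Hspa1a also overlaps Gm20481 on the opposite strand, and whether counting used the strand is not given in the sources used here.

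Over all 48 mice, FPKM being a level per length, Hspa8 (HSC70, the constitutive cytosolic HSP70) was the most abundant member, with a median of 283 FPKM (range 86.0 to 414). Hsp90aa1, the inducible cytosolic HSP90, followed with a median of 225 FPKM (115 to 355), and the small heat shock protein Hspb1 with 124 FPKM (55.9 to 301). The mitochondrial Hspe1 and Hspd1 had medians of 86.4 FPKM (49.2 to 132) and 53.6 FPKM (28.5 to 100.4). Dnajb1, the HSP40 that hands substrates to HSP70, had a median of 30.4 FPKM (13.4 to 46.8), Bag3, a nucleotide exchange factor of HSP70, 28.5 FPKM (14.2 to 40.1), and Hsph1 (HSP110, another exchange factor) 24.0 FPKM (6.93 to 46.3). Hspa1b and Hspa1a were lowest, with medians of 4.09 FPKM (2.26 to 33.0) and 3.22 FPKM (1.84 to 26.6). Neighbours in this order overlapped in range throughout.

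**Figure D1:**
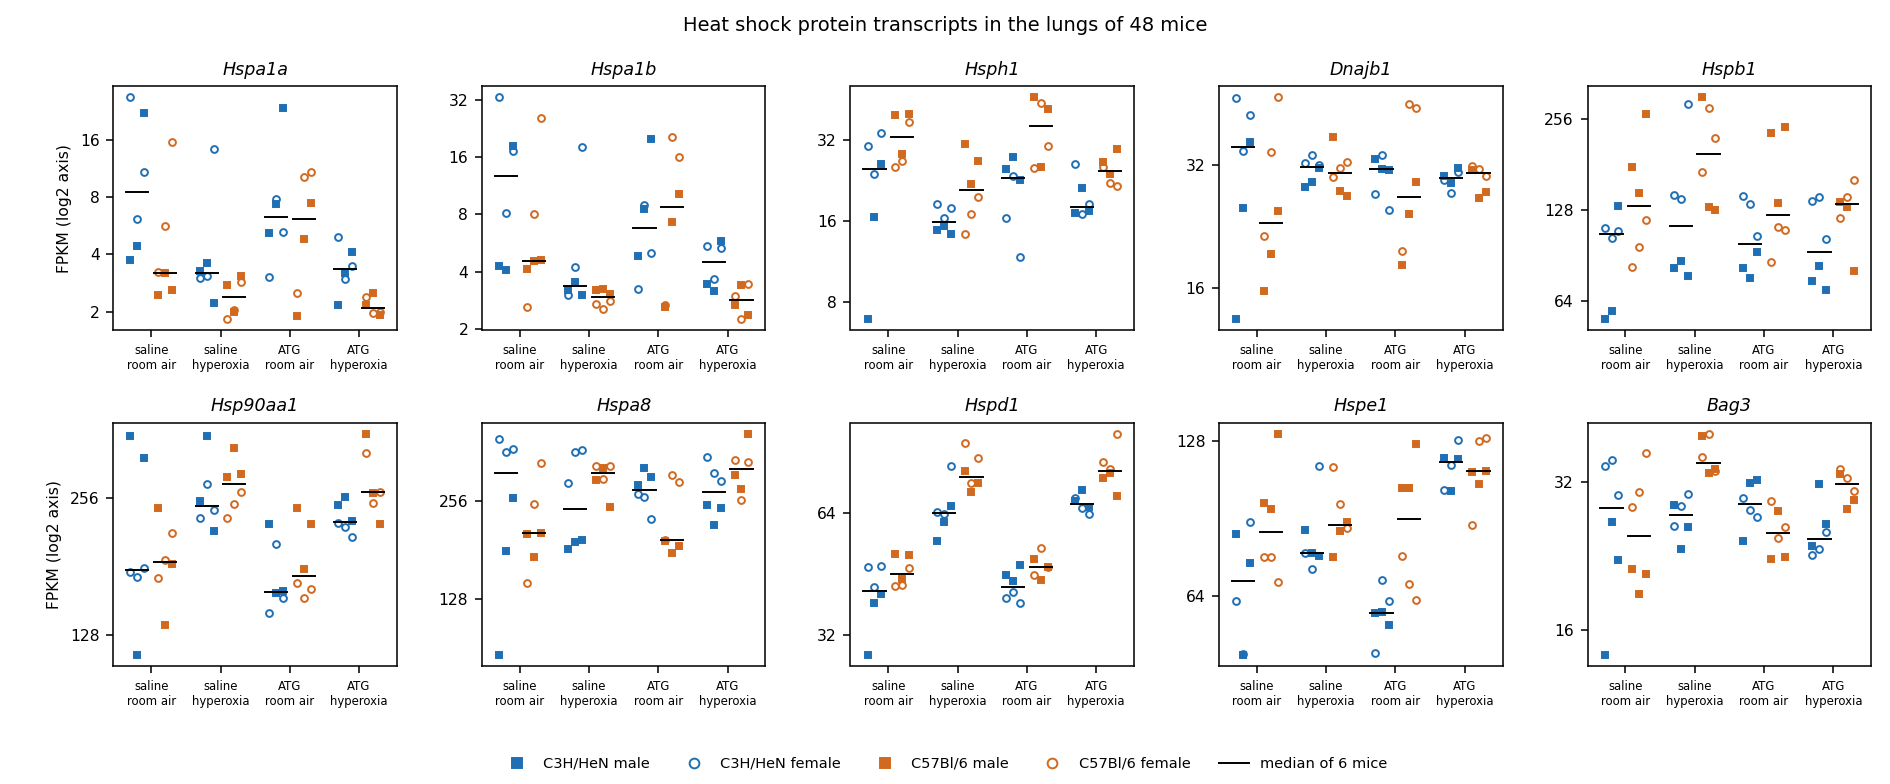
FPKM of each member (log2 axis) in each of the 48 mice by injection and air, with C3H/HeN in blue, C57Bl/6 in orange, males as filled squares, females as open circles and a line at the median of 6 mice. Hspd1 separated room air (28.5 to 52.5 FPKM) from hyperoxia (54.7 to 100.4 FPKM) in all mice, whereas Hspa1a and Hspa1b were scattered over a wide range in room air.

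Hyperoxia was compared with room air in the 24 saline mice, with strain and sex weighted equally (limma on log2(FPKM + 1), Benjamini-Hochberg adjustment over 16321 genes). Of the 10 members, 4 were higher and 3 lower in hyperoxia at an adjusted p below 0.05, that is 7 of 10, beside 60.1% of all genes tested (31.8% higher, 28.3% lower). The median difference was 0.23 over the 10 members and 0.01 over all genes tested. In whole lung, fewer cells of a type and less RNA per cell cannot be told apart, here or below.

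Hspd1, the mitochondrial HSP60, rose most clearly. In saline mice it lay between 28.5 and 50.7 FPKM in room air, with a median of 43.2, and between 54.7 and 95.3 FPKM in hyperoxia, with a median of 73.9. The conditions did not overlap in these 24 mice. The share of all genes that separate the conditions in this way was not computed. The Hspd1 difference was 0.75 ± 0.07 (log2 scale, SE, 12 mice a side, limma adjusted p = 1.35e-08). It was 0.69 ± 0.10 in C3H (adjusted p = 1.6e-05) and 0.80 ± 0.10 in C57B (adjusted p = 7.96e-07), again without overlap. In the ATG mice, which this test did not use, Hspd1 ranged from 38.4 to 52.5 FPKM in room air and from 63.7 to 100.4 FPKM in hyperoxia, so the conditions were separate there too.

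Hspe1, the HSP10 lid, whose gene lies head to head with that of Hspd1, did not pass this test. Its saline values were 49.2 to 132 FPKM in room air (median 76.1) and 72.2 to 114 FPKM in hyperoxia (median 85.8), and they overlapped widely. The difference was 0.18 ± 0.11 (limma adjusted p = 0.155). It was 0.29 without C3H male mice 1 and 3, where mouse 2, the lowest of all 48 mice, stood alone for its group. By strain it was 0.32 ± 0.15 in C3H (adjusted p = 0.101) and 0.04 ± 0.15 in C57B (adjusted p = 0.852). After removal of the group means, Hspd1 and Hspe1 correlated with r = 0.09 over 48 mice, which share libraries and depth.

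**Figure D2:**
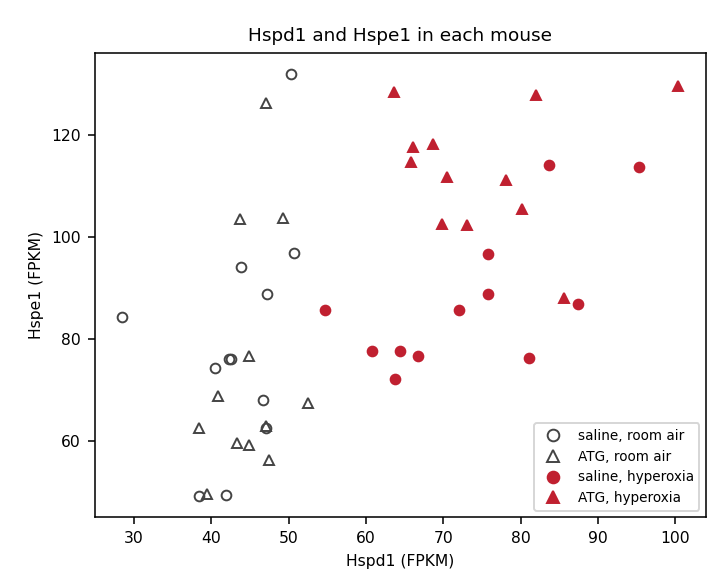
FPKM of Hspd1 (x axis) and Hspe1 (y axis) in each of the 48 mice, in room air (grey, open) or hyperoxia (red, filled) after saline (circles) or ATG (triangles). All 24 hyperoxia mice lie to the right of all room air mice along Hspd1, while along Hspe1 the conditions overlap and the ATG mice in hyperoxia lie between 88.1 and 129.7 FPKM.

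The inducible HSP70 genes fell. Hspa1a lay between 2.45 and 26.6 FPKM in saline mice in room air (median 5.03) and between 1.84 and 14.2 FPKM in hyperoxia (median 2.93). The difference was -0.87 ± 0.29 (limma adjusted p = 0.0152). Hspa1b lay between 2.63 and 33.0 FPKM in room air (median 6.33) and between 2.55 and 18.2 FPKM in hyperoxia (median 3.12), with a difference of -0.99 ± 0.31 (adjusted p = 0.00993). Both pairs of ranges overlapped, since several room air mice were as low as the hyperoxia mice, a few were far above them, and 1 hyperoxia mouse was high. Without C3H male mice 1 and 3 the differences were -0.71 (adjusted p = 0.0435) and -0.82 (adjusted p = 0.0406).

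Since most of their sequence is shared, Hspa1a and Hspa1b were also summed. In room air the sum reached 59.6 FPKM in C3H female mouse 25, 41.0 in C57B female mouse 39, 40.5 in C3H male mouse 3 and 28.1 in C3H female mouse 27, and the other 8 saline mice had 5.85 to 14.3 FPKM. In hyperoxia 11 of the 12 saline mice had 4.54 to 7.32 FPKM, and C3H female mouse 33 had 32.4 FPKM. High values in room air thus came from both strains and both sexes, but from none of the saline C57B males, which had 6.56 to 7.73 FPKM. In C57B the sum was 13.7 ± 13.7 FPKM in room air and 5.36 ± 0.693 FPKM in hyperoxia (SD, n = 6 each; two-sided exact permutation p = 0.00649, adjusted over 4 tests 0.026). Without mouse 39 the C57B difference was -2.85 in place of -8.32 FPKM, at the same exact permutation p of 0.00649. Leaving out any 1 of the 6 C57B hyperoxia mice hardly moved the difference (-8.48 to -8.16 FPKM), but the exact permutation p was then 0.11 to 0.143. Mouse 39 was then in the larger group, and arrangements that moved it to the smaller group also gave large differences. This p therefore does not show how far the call rests on single hyperoxia mice. With median ratio scaling the C57B difference was -8.04 FPKM (exact permutation p = 0.013, adjusted 0.0519). In C3H the sum was 26.5 ± 20.5 FPKM in room air and 10.8 ± 10.6 FPKM in hyperoxia (exact permutation p = 0.104, adjusted 0.208), and the C3H difference went from -15.7 to -20.1 FPKM (exact permutation p = 0.0455, adjusted 0.0909) without mouse 33. Which strain passed depended on the test. With Hspa1l, which shares sequence with both genes, added to the sum, limma on the log2 scale gave -1.10 ± 0.42 in C3H (adjusted p = 0.0461). In C57B it gave -0.81 ± 0.42 (limma adjusted p = 0.112). The ATG mice, not used in these tests, had 4.5 to 43.3 FPKM in room air and 4.24 to 10.3 FPKM in hyperoxia.

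**Figure D3:**
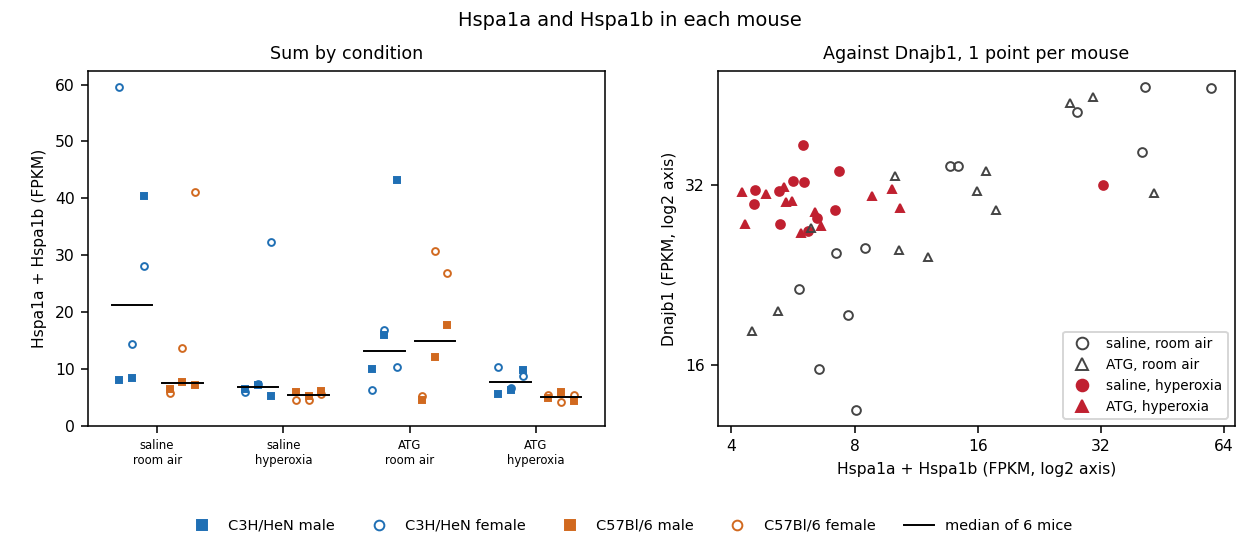
Left, the sum of Hspa1a and Hspa1b in FPKM by condition, with 1 point per mouse and a line at the median of 6 mice. Right, the same sum against Dnajb1 (both log2 axes) for room air (grey, open) and hyperoxia (red, filled), in which the room air mice spread along both axes and the hyperoxia mice, mouse 33 at 32.4 FPKM apart, stay between 4.24 and 10.3 FPKM of the sum.

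Hsph1, the HSP110 partner of HSP70, was the third member that fell. It lay between 6.93 and 40.3 FPKM in room air (median 27.6) and between 14.4 and 31.0 FPKM in hyperoxia (median 17.5), with the lowest room air value in C3H male mouse 1. The difference was -0.47 ± 0.14 (limma adjusted p = 0.00877), and -0.51 without C3H male mice 1 and 3. In C57B the difference was -0.59 ± 0.20 (adjusted p = 0.018), and without mouse 39 its adjusted p was 0.0525.

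The cytosolic members Hsp90aa1, Hspb1 and Bag3 were higher. Hsp90aa1, which matures kinases and steroid receptors, lay between 115 and 351 FPKM in room air (median 181) and between 217 and 350.3 FPKM in hyperoxia (median 258), a difference of 0.45 ± 0.14 (limma adjusted p = 0.0105). C3H male mice 1 and 3 had the highest room air values, 351 and 314 FPKM, and mouse 2 of the same group the lowest, 115 FPKM. Without mice 1 and 3, which leaves mouse 2 alone in that group, the difference was 0.70. Hspb1, a small heat shock protein that holds unfolding proteins and binds actin, lay between 55.9 and 265 FPKM in room air (median 110.3) and between 77.8 and 301 FPKM in hyperoxia (median 141), a difference of 0.46 ± 0.17 (adjusted p = 0.0265). Bag3, which links HSP70 to small heat shock proteins and autophagy, lay between 14.2 and 36.5 FPKM in room air (median 27.4) and between 23.4 and 40.1 FPKM in hyperoxia (median 31.8), a difference of 0.27 ± 0.08 (adjusted p = 0.00715). The ranges of all 3 overlapped. After quantile normalization the differences were 0.21 for Hsp90aa1 (adjusted p = 0.226), 0.24 for Hspb1 (adjusted p = 0.184) and 0.13 for Bag3 (adjusted p = 0.121), so these calls depended on the scaling. The call of Hspb1 was also lost with the median ratio scaling (0.40, adjusted p = 0.0769) and, at an adjusted p of 0.0504 to 0.0545, without any 1 of mice 1, 14, 19, 33 and 44.

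Dnajb1 and Hspa8, the other cytosolic members, did not pass. Dnajb1 had medians of 29.7 FPKM in room air (13.4 to 46.8) and 31.4 FPKM in hyperoxia (26.8 to 37.4), a difference of 0.14 ± 0.13 (limma adjusted p = 0.382). Hspa8 had medians of 229 FPKM (86.0 to 397) and 299 FPKM (183 to 368), a difference of 0.28 ± 0.14 (adjusted p = 0.0935). Without mouse 3 the Hspa8 difference was 0.37 (adjusted p = 0.0157), and without mouse 39 it was 0.35 (adjusted p = 0.0339). For both genes the hyperoxia mice lay within the range of the room air mice.

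**Figure D4:**
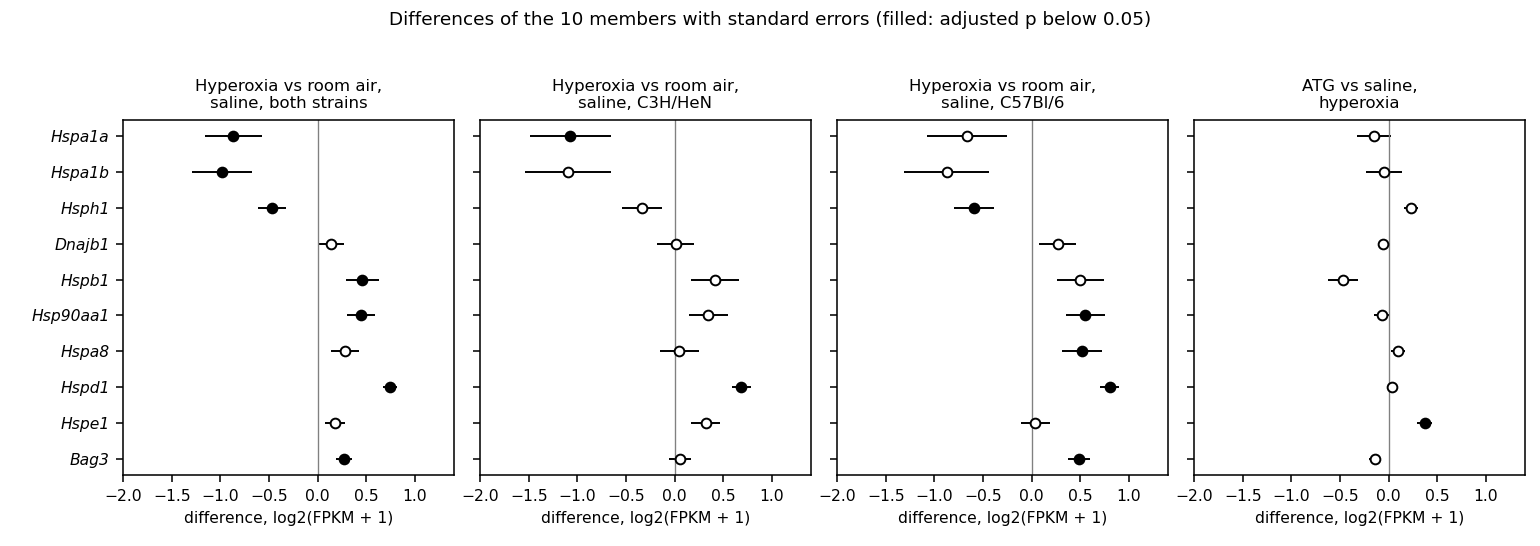
Difference in log2(FPKM + 1) of each member (points, with standard errors as bars) for hyperoxia against room air in all saline mice, in C3H/HeN and in C57Bl/6, and for ATG against saline in hyperoxia, filled where the adjusted p was below 0.05. Hspd1 is filled at 0.75, 0.69 and 0.80 in the 3 comparisons of hyperoxia, and Hspe1 is filled only for ATG in hyperoxia, at 0.37.

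Within strains, hyperoxia called 2 of 10 members in C3H (beside 37.8% of all genes tested, 25.3% higher and 12.5% lower) and 5 of 10 in C57B (beside 55.5%, 25.5% higher and 30% lower). Besides Hspd1, the C3H call was Hspa1a (-1.07 ± 0.42, limma adjusted p = 0.0476), and Hspa1b came to -1.10 ± 0.44 (adjusted p = 0.0556). The C3H call of Hspa1a held in only 10 of 31 alternatives (adjusted p from 0.0101 to 0.237). Leaving out mice 1 and 3 left mouse 2 as the only saline C3H male in room air. The C3H differences were then -0.76 for Hspa1a, -0.42 for Hsph1, 0.85 for Hsp90aa1 and 0.54 for Hspe1. In C57B the other calls were Hsph1, Hsp90aa1 (0.55 ± 0.20, adjusted p = 0.0257), Hspa8 (0.52 ± 0.20, adjusted p = 0.035) and Bag3 (0.49 ± 0.12, adjusted p = 0.0013). Of 31 alternatives, the call held in 31 for Bag3, 30 for Hsph1, 27 for Hsp90aa1 (adjusted p up to 0.259) and 23 for Hspa8 (adjusted p up to 0.287). Hspa8 was at 0.25 after quantile normalization and at 0.35 (adjusted p = 0.125) without mouse 37. C57B Bag3 lay between 18.9 and 36.5 FPKM in room air (median 24.8) and between 33.3 and 40.1 FPKM in hyperoxia (median 35.0), whereas in C3H it lay between 14.2 and 35.5 FPKM (median 28.3) and between 23.4 and 30.3 FPKM (median 27.3).

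The difference between strains was itself tested as an interaction, and 0 of 10 members passed, beside 11.5% of all genes (8.71% higher, 2.81% lower). The smallest adjusted p was that of Bag3 (C3H minus C57B difference -0.43 ± 0.16, limma adjusted p = 0.088). The interaction of hyperoxia with sex called 0 of 10 members, beside 0.0368% of all genes (0.0306% higher, 0.00613% lower), and the limma difference for Hspb1 was the largest in size (males minus females, -0.95). The median of all genes was 0.10 in C3H, -0.06 in C57B and 0.15 at the interaction, and a median ratio scaling moved these to -0.02, -0.03 and 0.00. The share of calls that were higher in C3H went from 66.9% to 48.4% with that scaling, and at the interaction from 75.6% to 46.5%. The C3H difference of Hspd1 was 0.53 after it (adjusted p = 0.000348), and its C57B difference was 0.84.

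The wider chaperone network was described with 61 genes in 8 lists, all of which were tested. In saline mice 29 of the 61 were higher and 12 lower in hyperoxia (67.2%, beside 60.1% of all genes). All 8 subunits of the cytosolic chaperonin TRiC/CCT that were listed rose (median 0.82), and so did 9 of 10 other mitochondrial chaperones and proteases (median 0.70), the exception being Hscb (-0.65). The largest rise was that of Hspa9, the mitochondrial HSP70 (1.99 ± 0.05, limma adjusted p = 8.01e-17, group means of 48.0 and 198 FPKM), followed by Hspb7 (1.14 ± 0.31, adjusted p = 0.00352), a small heat shock protein of heart, and Cct4 (1.03 ± 0.09, adjusted p = 1.42e-08). The largest falls were those of Hspa2 (-1.30 ± 0.09, adjusted p = 4.37e-10), the HSP70 of testis, Fkbp4 (-0.92 ± 0.07, adjusted p = 1.2e-09), a co-chaperone of HSP90, and Dnaja4 (-0.80 ± 0.12, adjusted p = 1.32e-05), an HSP40. Among other HSP40 proteins 2 of 10 rose and 4 fell, and among HSP90 and its co-chaperones 1 of 9 rose and 3 fell. Of HSP70 co-chaperones 4 of 7 rose, of other HSP70 and HSP110 proteins 3 of 8 rose and 3 fell, and of other small heat shock proteins 2 of 5 rose. Of the HSF family and its inhibitor, Hsbp1 fell (-0.43, adjusted p = 9.57e-07) and the other 3 did not pass. All 10 immediate early genes listed passed as well, 9 of them higher, led by Atf3 (2.22 ± 0.19, adjusted p = 6.18e-09).

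In their response to hyperoxia, 13 of the 61 genes differed between strains, 9 with a higher difference in C3H and 4 with a lower one (21.3%, beside 11.5% of all genes). The largest were Hspa4l (1.01 ± 0.22, limma adjusted p = 0.00721), Fkbp4 (0.90 ± 0.14, adjusted p = 0.000531) and Dnaja4 (0.78 ± 0.25, adjusted p = 0.0452). On the lower side they were Cct3 (-0.70 ± 0.18, adjusted p = 0.015), Cct6a (-0.62 ± 0.18, adjusted p = 0.0309) and Hspa9 (-0.62 ± 0.10, adjusted p = 0.000531). Hspa9 rose in both strains, by 1.68 in C3H and 2.30 in C57B.

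Markers of lung and other cells moved with hyperoxia in the same mice, and their part in the members' differences was not tested. Summed over the list, the 3 club cell markers went from 69658 to 230687 FPKM in room air to 6935 to 42120 FPKM in hyperoxia (3 of 3 lower), and the 5 markers of alveolar type 2 cells from 25381 to 48867 to between 5697 and 21494 FPKM (4 of 5 lower, 1 higher). The red blood cell list (5 genes, 1 at 0 in all mice) went from 3341 to 67957 FPKM to between 305 and 2004 FPKM (4 of 4 tested lower). The 6 cardiac muscle markers went from 24.1 to 1219 FPKM to between 13.8 and 96.4 FPKM (5 of 6 lower), and the 4 B cell and 4 T cell markers were all lower. The 4 neutrophil markers were all higher, from 131 to 763 FPKM in room air to 158 to 6206 FPKM in hyperoxia, and 2 of 4 smooth muscle markers were higher. Of alveolar type 1 markers 3 of 5 were lower, of macrophage markers 3 of 5 were higher and 1 lower, and of endothelial markers 1 of 4 was higher and 1 lower. Skeletal muscle markers (2 of 4 tested lower) summed to between 0.0742 and 954 FPKM in room air and to between 0.236 and 7.18 FPKM in hyperoxia, and 1 of 3 fat cell markers was lower. No other marker was at 0 in all mice.

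ATG was compared with saline in room air and in hyperoxia separately. In room air 0 of 10 members passed (beside 0.0185% of all genes, 0.0123% higher and 0.00616% lower), and the largest difference in size was that of Hspa1b (-0.13 ± 0.37, limma adjusted p = 0.936). In hyperoxia 1 of 10 passed, beside 5.47% of all genes (3.89% higher, 1.58% lower). This was Hspe1, with 72.2 to 114 FPKM after saline (median 85.8) and 88.1 to 129.7 FPKM after ATG (median 113). The ranges overlapped, the saline mice above 100.4 FPKM being C3H female mouse 33 and C57B female mouse 43, with 114 FPKM each. The difference was 0.37 ± 0.08 (limma adjusted p = 0.0128), and its adjusted p stayed between 0.00403 and 0.0323 under 30 alternatives. In room air the medians were 76.1 FPKM after saline and 65.3 FPKM after ATG (-0.09 ± 0.10, adjusted p = 0.834). The interaction of ATG with air was 0.46 ± 0.13 for Hspe1 (adjusted p = 0.0441), the 1 call among 10 members beside 2.77% of all genes (1.56% higher, 1.21% lower), and it was kept in 20 of 54 alternatives (adjusted p from 0.00992 to 0.129).

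The difference of Hspe1 after ATG stood beside that of other short genes, and the part of length in it was not tested. Hspe1 has a longest transcript of 964 bases. Over the 359 protein coding genes with a longest transcript above 750 and up to 1000 bases, the median difference was 0.15 for ATG in hyperoxia and 11.4% were called higher, whereas over the 2853 genes above 5000 bases the median was -0.02 and 1.26% were called higher. Over all genes, 71.1% of the calls in hyperoxia were higher after ATG, and 41.0% with the median ratio scaling, under which Hspe1 was at 0.31 (limma adjusted p = 0.0323). Hspd1 did not pass (0.04 ± 0.06, adjusted p = 0.732), with medians of 73.9 and 71.8 FPKM. Hspb1 had 77.8 to 301 FPKM after saline (median 141) and 69.4 to 160.3 FPKM after ATG (median 126), a difference of -0.47 ± 0.15 (adjusted p = 0.0717, and 0.0381 after quantile normalization).

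Of the 61 chaperone genes, 7 were higher and 0 lower after ATG in hyperoxia (11.5%, beside 5.47% of all genes), and 0 passed in room air. The largest were Chordc1 (0.39 ± 0.08, limma adjusted p = 0.00867), which binds HSP90, Dnaja3 (0.31 ± 0.08, adjusted p = 0.0335), a mitochondrial HSP40, and Clpp (0.24 ± 0.06, adjusted p = 0.0188), a mitochondrial protease. At the interaction of ATG with air, 3 of 61 were higher (4.92%, beside 2.77% of all genes, 1.56% higher), namely Chordc1 (0.48 ± 0.11, adjusted p = 0.0137), Clpp (0.31 ± 0.08, adjusted p = 0.0259) and Hsbp1 (0.31 ± 0.07, adjusted p = 0.0194). No marker list had more than 2 genes past the test after ATG in hyperoxia. Those 2 were endothelial, of 4, and both were lower.

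At baseline, in the 12 saline mice in room air, 0 of 10 members differed between strains (beside 11.8% of all genes, 3.92% higher and 7.87% lower in C3H), 0 between sexes (beside 0.669%, 0.238% higher and 0.431% lower in males), and 0 at the interaction (beside 0%, with 2538 of 15546 genes at an unadjusted p below 0.05 in limma). Over all genes the median difference for sex (males minus females) was -0.12. Of the 3617 genes at an unadjusted p below 0.05 in limma, 2690 were lower in males. Bag3 came nearest for sex. Males had 14.2, 18.9, 20.8, 21.2, 22.1 and 26.5 FPKM and females 28.4, 30.1, 30.4, 34.4, 35.5 and 36.5 FPKM, and the sexes did not overlap. The share of all genes that separate the sexes in this way was not computed. The Bag3 difference was -0.65 ± 0.14 (males minus females, limma adjusted p = 0.0617), and -0.58 with an adjusted p of 0.05 after quantile normalization. Female means were also above male means for Dnajb1 (37.7 and 22.4 FPKM, difference -0.75 ± 0.24, adjusted p = 0.123) and Hspa8 (310.2 and 185 FPKM, -0.74 ± 0.25, adjusted p = 0.136), with overlap. The median sex difference of protein coding genes ran with transcript length, from 0.25 up to 750 bases to -0.24 above 5000 bases. It was -0.06 above 1500 and up to 3000 bases (Bag3, Dnajb1) and -0.16 above 3000 and up to 5000 bases (Hspa8). The part of length in these differences was not tested. For strain, Hspb1 (-0.59 ± 0.21, C3H minus C57B, adjusted p = 0.101), Hsph1 (-0.62 ± 0.25, adjusted p = 0.138) and Hspe1 (-0.41 ± 0.17, adjusted p = 0.142) had the smallest adjusted p. Without C3H male mouse 1, the lowest male in Bag3, Dnajb1, Hspa8 and Hsph1, the sex difference was -0.53 for Bag3 (adjusted p = 0.0548), -0.57 for Dnajb1 (0.2) and -0.52 for Hspa8 (0.214), and the strain difference of Hsph1 was -0.38 (0.178). Bag3 passed for sex without mouse 2 (-0.74, adjusted p = 0.00477), which left mice 1 and 3 as the C3H males. Hspb1 (-0.78, adjusted p = 0.00889) and Hsph1 (-0.82, adjusted p = 0.0343) passed for strain without mouse 3. The sum of Hspa1a and Hspa1b was 26.5 ± 20.5 FPKM in C3H and 13.7 ± 13.7 FPKM in C57B (SD, n = 6; two-sided exact permutation p = 0.214, adjusted 0.214), and 13.1 ± 13.4 FPKM in males and 27.1 ± 20.2 FPKM in females (exact permutation p = 0.19, adjusted 0.214).

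Clock genes moved with sex and strain in the same 12 mice, and their part in the members' values was not tested. Of 12 tested genes of the circadian and temperature list, 7 were lower in males (Dbp by most, -2.44 ± 0.22, limma adjusted p = 0.00113), and 6 were higher and 2 lower in C3H. The immediate early gene Dusp1 was lower in males (-1.33 ± 0.20, adjusted p = 0.015). Among the 61 chaperone genes, 1 passed for sex (1.64%, beside 0.669% of all genes), Hspa2, which was lower in males (-0.71 ± 0.14, adjusted p = 0.0456). Between strains 4 of 61 passed (6.56%, beside 11.8% of all genes). Cryab, a small heat shock protein, was higher in C3H (0.58 ± 0.11, adjusted p = 0.00457), and Hspa4l (-0.77 ± 0.15, adjusted p = 0.00671), Fkbp4 (-0.51 ± 0.11, adjusted p = 0.00843) and Ahsa1 (-0.41 ± 0.11, adjusted p = 0.0395) were lower.

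The members differed widely in how much mice of 1 group varied. The SD within groups on the log2 scale was 0.72 for Hspa1a and 0.78 for Hspa1b, at percentiles 96.1 and 96.8 of all genes, whose median was 0.26. For Hspd1 it was 0.13, at percentile 3.41. Hspa1a varied with an SD of 0.91 within the room air groups and 0.45 within the hyperoxia groups, Hspa1b with 1.00 and 0.47, and Dnajb1 with 0.44 and 0.11. Hspd1 had 0.12 and 0.13. This is a description, without a test.

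Which members moved together is given as correlations over the 48 mice, which share libraries and depth. After removal of the group means, Hspa1a and Hspa1b had r = 0.95, Dnajb1 and Hspa8 r = 0.77, Hspa1b and Dnajb1 r = 0.71, and Hsph1 and Hspa8 r = 0.70, and the lowest was Hsp90aa1 with Bag3, r = -0.40. Within the 24 room air mice the sum of Hspa1a and Hspa1b had r = 0.80 with Dnajb1, 0.65 with Hspa8, 0.84 with the immediate early gene Atf3, 0.69 with the clock gene Per1 and -0.71 with Ier3. Within the 24 hyperoxia mice the values were 0.00 with Dnajb1, 0.20 with Hspa8, 0.41 with Atf3, -0.20 with Per1 and 0.66 with Ier3. Atf3, Per1 and Ier3 were picked after the values were seen, as the largest in size in room air among the listed immediate early and clock genes. The others of these lists ranged there from -0.31 (Arntl) to 0.58 (Dusp1), with Per3 at 0.02.

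Over 16994 genes and 48 mice, without removal of the group means, the gene nearest to Hspa1a was Hspa1b (Pearson r = 0.96), followed by Gm20481 (0.83), which overlaps it. Nearest to Hspd1 were Eif4a-ps4, Cct2, a chaperonin subunit, and Nsun2, an RNA methyltransferase, each with r = 0.96. Nearest to Hspe1 were Rps24 (0.84) and Mrpl57 (0.83), ribosomal proteins of the cytosol and the mitochondria, and Rps12-ps3 (0.81). Hsph1 was nearest to Ahsa1 (0.74), an activator of HSP90, Dnajb1 to Hspa8 (0.72), Bag3 to Erf (0.82), and Hspa8 to Atxn7l3 (0.77). Hspb1 and Hsp90aa1 were nearest to the pseudogenes that share their sequence, Hsp25-ps1 (0.95) and Gm12346 (0.82).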

How the data were processed

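The authors sequenced mRNA libraries from 48 mouse lungs and, per the labels and the methods, mapped reads to mm10 with GSNAP, used SAMtools, and derived FPKM with Cufflinks. The deposited table gives each gene an FPKM value in every mouse. Which gene annotation was used, how multiply matching reads were treated and whether strand was used are not given in the sources used here, and the sources name different sequencing kits and instruments. Such choices can divide reads between members and their near-identical copies. Depth is unknown and precision comes from the spread between mice, 3 in each group.

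Genes of the X and Y chromosomes and of mitochondrial DNA are listed at 0, and 1 gene with failed estimates was left out. Group means of log2(FPKM + 1) were estimated by limma (version 3.58.1, R version 4.3.3, eBayes with trend) for genes at or above 1 FPKM in at least 3 of the mice fitted, with Benjamini-Hochberg adjustment and a threshold of 0.05. Baseline fits used 12 saline room air mice, fits of hyperoxia 24 saline mice, fits of ATG the 24 mice of 1 air, and ATG by air all 48. Fold changes on this scale understate changes of low genes. The sum of Hspa1a and Hspa1b was tested with exact permutations. All 10 members were named, and for the 61 chaperone genes, counts and the 3 largest rises and falls past the threshold. For each member the 3 nearest genes by Pearson r were taken. The exception Hscb, and the genes Hsbp1, Atf3, Dbp, Dusp1, Per1 and Ier3, were named after their values were seen. The members and lists were chosen with earlier results of these data known. Coordinates and shared 30-base sequences are from GENCODE M21 (GRCm38), in which 47144 genes were matched by identifier, and promoters are from RefSeq. The alternatives were a pseudocount of 0.1, no filter, quantile normalization, median ratio scaling, eBayes without trend, 1 fit of all 48 mice, leaving out mice, and members summed with their relatives, the last chosen after seeing the data. The fits were also run on simulated data with independent normal errors for each gene. No shift common to a mouse was simulated, so that run does not cover such shifts.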

Additional observations from a re-analysis of the deposited data

Results flagged for a closer look

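In each member, the highest or lowest mouse was set against the other 5 mice of its strain, injection and air by Dixon's ratio. Of 80 such groups 8 passed the critical value of 0.625. Chance flags about 1 in 20 groups when values are normal and groups independent. These were FPKM of both sexes pooled, in genes that partly share sequence, so no excess over chance can be read from this count. Hspa1a was high in C3H male mouse 6 (ATG, room air, 23.3 FPKM against 3.04 to 7.81 in the others), in C3H female mouse 33 (saline, hyperoxia, 14.2 against 2.23 to 3.62) and in C57B female mouse 39 (saline, room air, 15.5 against 2.45 to 5.65). Hspa1b was high in the same mice, with 20.0 FPKM in mouse 6 (others 3.23 to 8.98), 18.2 in mouse 33 (others 3.0 to 4.23) and 25.6 in mouse 39 (others 2.63 to 8.07), and since both genes share most of their sequence these are not separate observations. Mouse 33 was also high in Hspb1 (286 FPKM against 77.8 to 143) and Hspe1 (114 against 72.2 to 85.8).

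The effect of ATG on Hspe1 differed between hyperoxia and room air by 0.46 ± 0.13 on the log2 scale (limma interaction, adjusted p = 0.0441, kept in 20 of 54 alternatives).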

How the results depend on the processing

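In saline mice, 7 members passed for hyperoxia and 4 with quantile normalization. Hspa1a, Hspa1b, Hsph1 and Hspd1 passed in 31 of 31 alternatives, Bag3 and Hsp90aa1 in 30 and Hspb1 in 24. In C3H, 2 members passed, 1 without a filter or without trend, and 4 with quantile normalization, without C3H male mice 1 and 3, or with all 48 mice in the fit (1 to 4 when leaving out 1 mouse). In C57B it was 5, 3 with quantile normalization, and 3 without mouse 14 or mouse 20. At hyperoxia by strain 0 members passed, 1 with quantile normalization, median ratio scaling, all 48 mice or without C3H male mice 1 and 3, and 2 without mouse 1. At hyperoxia by sex 0 passed, and 1 with all 48 mice or without mouse 2 or mouse 19. At baseline 0 passed. For strain it was 1 without C3H male mice 1 and 3, 2 without mouse 3 and 3 with all 48 mice, for sex 1 with quantile normalization, 2 without mouse 2 and 3 with all 48 mice, and for their interaction 1 with all 48 mice or without mouse 2. For ATG in hyperoxia 1 passed, and 2 with quantile normalization or without mouse 21. For ATG by air 1 passed, and 0 without a filter, without trend, with either scaling, without C3H male mice 1 and 3, or without any of 28 single mice. The C57B sum of Hspa1a and Hspa1b differed by -9.89 to -2.85 FPKM when leaving out 1 mouse, and lost its call without any of the 6 hyperoxia mice (-8.48 to -8.16 FPKM), where mouse 39 stayed in the larger group. It also lost its call with median ratio scaling (-8.04 FPKM, exact permutation p = 0.013, adjusted over the 4 sum tests 0.0519). The sum differed by -19.5 to -7.52 FPKM for sex and by -20.1 to -9.11 FPKM in C3H when leaving out 1 mouse, and neither passed after adjustment (smallest exact permutation p 0.0498, adjusted 0.0996, without mouse 3 for sex, and 0.0455, adjusted 0.0909, without mouse 33 in C3H). Over all genes, leaving out C3H male mouse 2 took the calls from 1832 to 4021 for strain, from 104 to 3640 for sex, from 0 to 2741 for their interaction, from 1880 to 3242 for hyperoxia by strain, from 6 to 1270 for hyperoxia by sex, from 3 to 32 for ATG in room air and from 470 to 1093 for ATG by air. With all 48 mice in the fit they were 2982, 1915, 748, 2994 and 306 for the first 5 of these. Sex calls were 40 without a filter and 30 without C3H male mice 1 and 3, and ATG in hyperoxia went from 868 to between 443 and 554 without any of 7 single mice. Without mouse 2, the C3H male group given saline in room air held only mice 1 and 3, and without mice 1 and 3 only mouse 2. The median ratio scaling factors were 0.777 and 0.812 in mice 1 and 3, against 0.993 in mouse 2. The cause of these changes in calls was not tested. Of 3012 values of members not past the threshold under alternatives, 129 had the opposite sign to the main value. No paired analysis was possible because each mouse has its own number and the groups share none.

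FPKM carries no depth, so no counting error can be given for Hspa1a and Hspa1b, the lowest members, and reads shared with Hspa1l, pseudogenes and overlapping genes cannot be assigned again from this table. With 3 mice a group, single mice decide several calls.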
